A study of Mus musculus with 9 samples.

Results

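The Ly6 and uPAR family comprises small surface and secreted proteins built on a cysteine-rich three-finger fold, most of them held in the membrane by a GPI anchor. The 8 genes described are Lypd3, Ly6d, Psca, Ly6g6c, Ly6e, Ly6a, Ly6k and Plaur, out of 22619 genes measured. They were found as the non-control probes whose gene name equals one of these symbols, which gave 9 probes, 2 of them for Plaur, and all 8 genes passed the filter on dim probes. Lypd3, Ly6d and Psca are among them because earlier readings of these arrays showed lower values without p63. Their differences from wild type are therefore given as a description without p-values, and nothing is read from their calls.

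Esophagus RNA of newborn C57BL/6J mice (postnatal day 0) was set against a universal mouse reference RNA from 11 cell lines on 2-colour arrays, 1 array per sample. The groups were p63 knockout mice carrying a Cdx2 transgene (genotype p63-/-;Cdx2, n = 2, numbered out of 3 in the labels and named Villin-Cdx2 in the series), p63 knockout mice (p63-/-, n = 3) and wild type mice (n = 4). The samples within a group are labelled as biological replicates. The labels do not say which part of Trp63 was deleted or whether animals were pooled, and name epithelium as the cell type although RNA came from esophageal tissue. Cy5 marked the sample and Cy3 the reference throughout, so dyes were never swapped.

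The 3 genotypes were hybridised on 3 separate slides, scanned separately, so slide and genotype cannot be told apart. One label of wild type replicate 4 names the knockout while its title and genotype name wild type, so the results are also given without it. The sample signal was well above background for 30021 to 33243 probes, depending on the array. Trp63, which encodes p63, had log2 ratios of 3.37 and 3.09 in the knockout with Cdx2, 2.74, 2.73 and 2.73 in the knockout and 3.39 to 4.13 in wild type. The markers of squamous epithelium separated wild type from both genotypes without p63, which overlapped each other. Their summed log2 sample signal was 15.7 to 15.9 in the knockout with Cdx2, 15.7 to 16.1 in the knockout and 18.0 to 18.3 in wild type for the 8 basal markers. For the 11 measured of 12 suprabasal markers it was 12.5 to 13.4, 13.2 to 13.9 and 15.6 to 15.8 in the same order of genotypes. In the log ratio, 7 of those 11 were lower in the knockout than in wild type (limma, adjusted p under 0.05). In the knockout with Cdx2, 8 were lower than in wild type. Of the 8 basal markers, 2 and 3 were lower in these comparisons. Over all genes, 0.27% and 0.973% were called lower. The separation was not particular to squamous markers. The summed signal of the smooth muscle markers (7 of 7 measured) was 17.8 to 18.1 in the knockout with Cdx2 and 18.0 to 18.1 in the knockout. In wild type it was 18.3 to 19.2, and none of these markers was called in either comparison. For the other cell type lists the summed signal of wild type overlapped that of both genotypes. The part of these lists in the results below was not tested. In RNA from whole tissue, fewer cells of a type and less RNA per cell cannot be told apart.

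As background, p63 is the transcription factor that maintains stratified squamous epithelium, whereas Cdx2 directs intestinal epithelial identity. Lypd3, also called C4.4A, is a GPI-anchored relative of the urokinase receptor found in stratified squamous epithelium. Ly6d is a GPI-anchored surface protein of stratified epithelia and of early B lineage cells. Psca, prostate stem cell antigen, is a GPI-anchored protein of epithelia that include esophagus, stomach, bladder and prostate. Plaur is the urokinase receptor, which holds urokinase at the cell surface, where it activates plasminogen. Ly6a, or Sca-1, marks haematopoietic stem cells and endothelium in the mouse, Ly6e is an interferon-inducible member, Ly6k is known from male germ cells, and Ly6g6c lies in the major histocompatibility region.

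On the array's build, mm9, the probes of 5 members lay on chromosome 15 in the order Psca, Ly6d, Ly6k, Ly6e, Ly6a. Plaur and Lypd3 lay on chromosome 7 and Ly6g6c on chromosome 17. The RefSeq table of windows before gene starts (GRCm38.p6) held 3 of the 8 members, Lypd3, Ly6g6c and Plaur. Their 250 bases upstream of the start are printed because Lypd3 and Plaur are relatives on the same chromosome with different readings across the genotypes, and Ly6g6c is the remaining member that the table holds. Capitals mark matches, on either strand, to the spacing of the p53 family core (a C, any 2 bases, a G, any 6 bases, a C, any 2 bases and a G), the AP-1 motif (TGANTCA) and the TATA box (TATAAA).
Lypd3, chr7:24636320-24636569, + strand: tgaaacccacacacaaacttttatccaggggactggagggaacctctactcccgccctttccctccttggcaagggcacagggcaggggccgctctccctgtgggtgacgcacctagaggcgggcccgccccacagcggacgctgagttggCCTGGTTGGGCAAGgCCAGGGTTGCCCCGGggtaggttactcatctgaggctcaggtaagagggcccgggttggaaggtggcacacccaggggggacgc
Plaur, chr7:24462233-24462482, + strand: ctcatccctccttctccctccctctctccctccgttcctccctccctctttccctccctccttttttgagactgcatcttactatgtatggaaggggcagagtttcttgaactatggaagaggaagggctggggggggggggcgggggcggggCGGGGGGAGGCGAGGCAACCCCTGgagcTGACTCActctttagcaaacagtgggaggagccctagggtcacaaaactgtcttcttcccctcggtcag
Ly6g6c, chr17:35067075-35067324, + strand: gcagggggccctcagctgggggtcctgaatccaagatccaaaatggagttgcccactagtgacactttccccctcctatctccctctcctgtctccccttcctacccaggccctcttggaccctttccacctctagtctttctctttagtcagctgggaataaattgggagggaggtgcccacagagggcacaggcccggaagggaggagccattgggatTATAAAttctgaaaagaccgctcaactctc

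The Lypd3 window held 3 matches to the p53 family spacing between 99 and 70 bases upstream of the start, of which the last 2 overlap. The Plaur window held 2 such matches between 97 and 74 bases upstream, which overlap, and 1 AP-1 motif at 69 to 63 bases. The Ly6g6c window held 1 TATA box at 30 to 25 bases. Over 32851 windows of the same length, 63.5% held the p53 family spacing, 6.75% the AP-1 motif and 12.4% the TATA box, so a match to the loose p53 spacing is common. These matches are letters in a window and not sites of binding.

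Lypd3 was lower in both genotypes without p63 than in wild type. Its log2 ratio of sample over reference was -0.25 and 0.15 in the knockout with Cdx2, 0.76, 0.68 and 0.36 in the knockout, and 2.76, 3.03, 2.78 and 2.83 in wild type. All 5 arrays without p63 were lower than every wild type array, and the replicates of each group lay close together. Knockout arrays averaged 0.60 ± 0.21 (SD, n = 3) and wild type arrays 2.85 ± 0.12 (SD, n = 4), a difference of -2.25 (SE 0.13), or 4.75-fold lower. The knockout with Cdx2, at -0.05 ± 0.28 (SD, n = 2), was lower than wild type by a difference of -2.90 (SE 0.15), or 7.45-fold. The unadjusted sample intensity was 154 and 239 units in the knockout with Cdx2, 383, 400 and 311 units in the knockout, and 13895, 16276, 13354 and 12482 units in wild type.

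Ly6d was lower in both p63 knockout genotypes than in wild type and was the most variable member within them. Its log2 ratio was -2.42 and -0.15 in the knockout with Cdx2, 0.06, -1.06 and -0.77 in the knockout, and 2.28, 2.53, 2.38 and 2.24 in wild type. The wild type arrays lay close together and above all arrays without p63, while of the arrays with Cdx2 replicate 1 lay below the range of the knockout and replicate 2 inside it. Knockout arrays averaged -0.59 ± 0.58 (SD, n = 3) and wild type arrays 2.36 ± 0.13 (SD, n = 4), a difference of -2.95 (SE 0.49), or 7.72-fold lower. The knockout with Cdx2 averaged -1.28 ± 1.61 (SD, n = 2), which was -3.64 (SE 0.55) from wild type. Its unadjusted sample intensities were 432 and 2384 units in the knockout with Cdx2, 2399, 1289 and 1546 units in the knockout, and 22582, 23451, 20866 and 18810 units in wild type.

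Psca followed the same order. Its log2 ratio was -0.37 and 0.34 in the knockout with Cdx2, 1.33, 0.45 and 0.63 in the knockout, and 2.46, 2.54, 2.23 and 2.64 in wild type. The 3 genotypes did not overlap, and knockout replicate 1 was the highest array without p63. The knockout averaged 0.81 ± 0.47 (SD, n = 3) and wild type 2.47 ± 0.17 (SD, n = 4), a difference of -1.66 (SE 0.24), or 3.17-fold lower. The knockout with Cdx2 averaged -0.01 ± 0.50 (SD, n = 2), -2.48 (SE 0.27) from wild type. Cdx2 replicate 1 was the array on which this probe did not rise well above background, and its unadjusted sample intensity there was 72 units, with 150 units on Cdx2 replicate 2, 206 to 459 units in the knockout and 3691 to 5395 units in wild type.

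**Figure D1:**
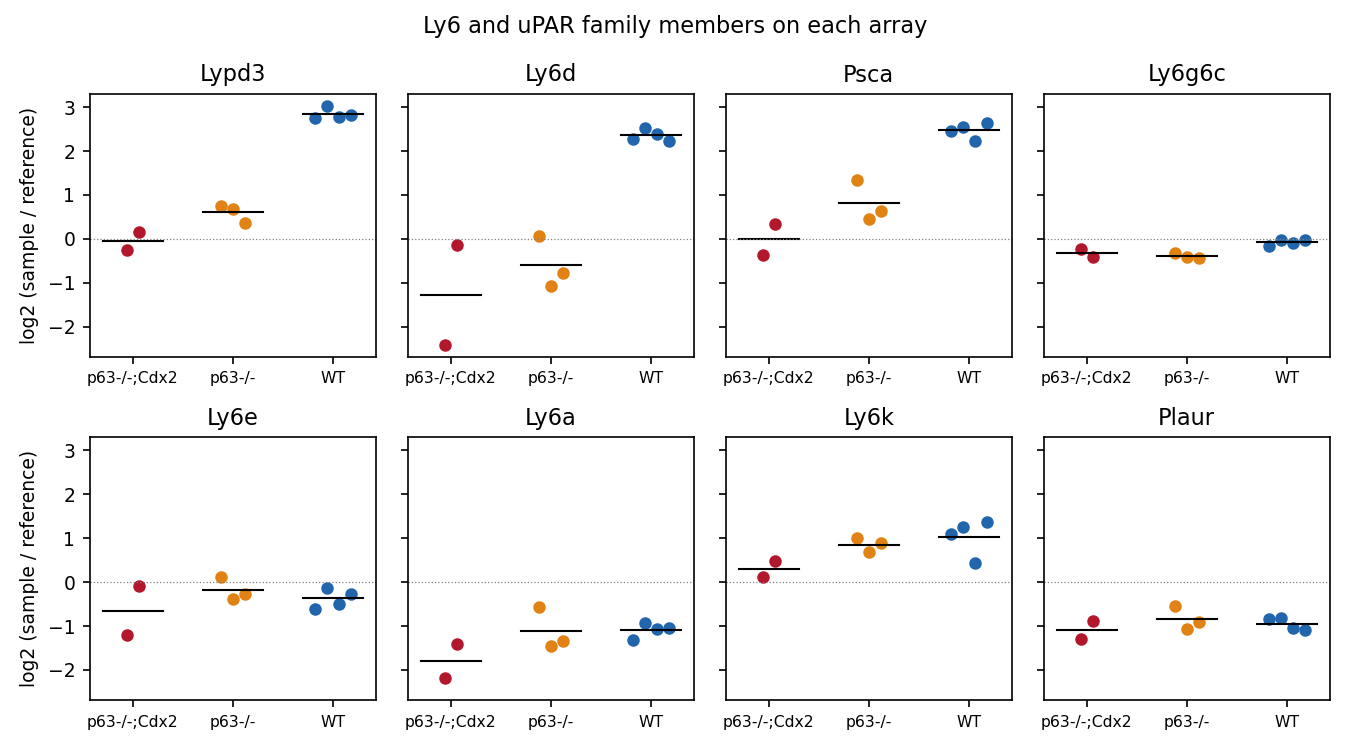
Log2 ratio of sample over reference RNA (vertical axis) for the 8 members on each of the 9 arrays, by genotype; points are arrays and lines are group means. Lypd3, Ly6d and Psca lie between -2.42 and 1.33 in the 5 arrays without p63 and between 2.23 and 3.03 in wild type, while the differences of the other 5 members between genotype means run from -0.74 to 0.19.

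In the fit over all genes, 2 of the 8 members passed for the knockout against wild type in the log ratio (limma, adjusted p under 0.05). Both were lower and both were among the 3 chosen members. Of all 22619 genes, 0.327% were called in either direction and 0.27% were called lower. The remaining chosen member, Ly6d, did not pass in this comparison. For p63-/-;Cdx2 against wild type 3 of 8 passed, all lower, beside 1.41% of all genes in either direction and 0.973% lower. Lypd3, Ly6d and Psca were chosen on these comparisons, so nothing is read from either count. Leaving out knockout replicate 2 or 3, or wild type replicate 1, 2 or 4, left 1 member past the threshold for the knockout against wild type. Without wild type replicate 4, the differences of the knockout from wild type were -2.25 for Lypd3, -2.99 for Ly6d and -1.61 for Psca, and those of p63-/-;Cdx2 were -2.90, -3.68 and -2.43 in the same order, and none of the other 5 members passed in either comparison. The arrays of the knockout and of wild type did not overlap for 4 of 8 members, beside 10.5% of all genes, and those of the knockout with Cdx2 and wild type did not overlap for 5 of 8, beside 27.7%. The same 3 chosen members are in both of these counts, so nothing is read from them either.

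The reference channel holds the same RNA on every array, yet the Lypd3, Ly6d and Psca probes were dimmer in it on the arrays without p63. The unadjusted reference intensity of Lypd3 was 101 and 103 units on the arrays of the knockout with Cdx2, 121, 104 and 103 units on those of the knockout, and 1386, 1426, 1295 and 1149 units on those of wild type. After normalization the reference channel differed between knockout and wild type arrays by -3.24 for Lypd3, -1.08 for Ly6d and -2.46 for Psca on the log2 scale, against -0.02 for Ly6e and -0.03 for Ly6a. Differences of 1 or more in either direction occurred in 0.65% of all genes. The log ratio subtracts this reference signal.

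In the sample channel alone, the knockout minus wild type differences were larger in size, at -5.48 (SE 0.17) for Lypd3, -4.03 (SE 0.51) for Ly6d and -4.12 (SE 0.31) for Psca. The knockout with Cdx2 minus wild type differences were -6.12 (SE 0.20) for Lypd3, -4.59 (SE 0.58) for Ly6d and -5.10 (SE 0.35) for Psca. The direction was the same on both scales, while the sizes differed. The cause of the reference difference was not tested. In this channel 3 of 8 members passed for the knockout against wild type, beside 1.77% of all genes, and 4 of 8 for p63-/-;Cdx2 against wild type, beside 2.44%. Lypd3, Ly6d and Psca, chosen on these comparisons, make up 3 of the members in each count, so nothing is read from them.

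**Figure D2:**
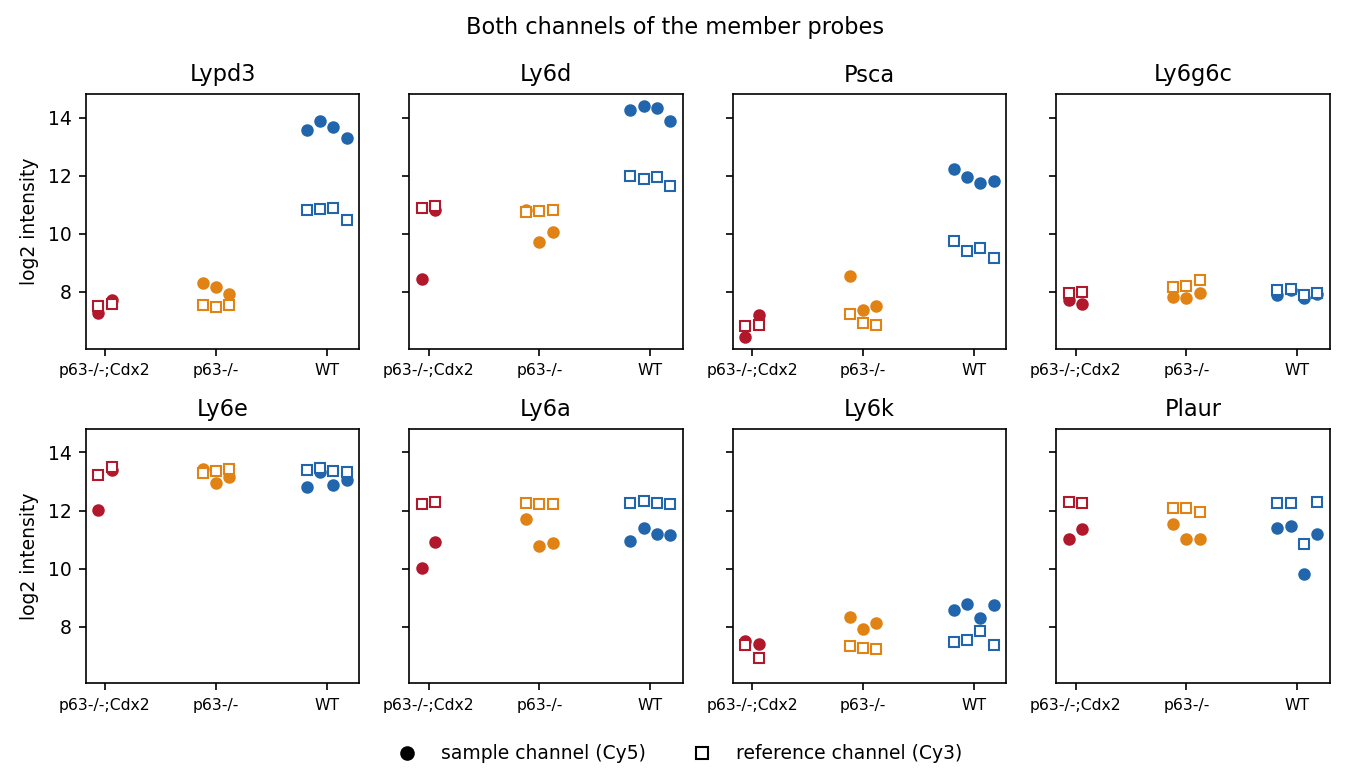
Normalized log2 intensity (vertical axis) of each member's probe in the sample channel (filled circles) and the reference channel (open squares) on every array, by genotype. For Lypd3 and Psca both channels are higher on the wild type arrays, for Ly6e and Ly6a the reference stays level, and wild type replicate 3 stands low in both channels for Plaur.

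Ly6k was a member whose call depended on the scale, and its probe was dim. The unadjusted sample intensity was 196 and 195 units in the knockout with Cdx2, 341 to 394 units in the knockout and 355 to 478 units in wild type. In the reference channel it was 64 to 106 units. The log2 ratio of Ly6k was 0.12 and 0.48 in the knockout with Cdx2, 1.00, 0.68 and 0.90 in the knockout, and 1.09, 1.25, 0.44 and 1.37 in wild type. The arrays of the knockout with Cdx2 lay below those of the knockout, and they overlapped wild type through wild type replicate 3. The knockout with Cdx2 minus wild type difference of -0.74 (SE 0.25) did not pass (limma, adjusted p = 0.170), and it passed without wild type replicate 3, at -0.94 (limma, adjusted p = 0.0346). Read from the sample channel only, the difference was -1.14 (SE 0.16) and passed (limma, adjusted p = 0.0125). In that channel the arrays with Cdx2 lay below all wild type arrays. Arrays of these groups did not overlap there, in either direction, for 31.1% of all genes, so nothing is read from this. The knockout itself differed from wild type by -0.18 (SE 0.22), which did not pass (limma, adjusted p = 0.865).

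Ly6g6c had the narrowest range of log2 ratios over the 9 arrays among the 8 members. Its log2 ratio was -0.23 and -0.42 in the knockout with Cdx2, -0.32, -0.41 and -0.44 in the knockout, and -0.17, -0.02, -0.09 and -0.03 in wild type. All 5 arrays without p63 were below wild type, by a small amount. The knockout minus wild type difference of -0.31 (SE 0.08; 95% interval -0.49 to -0.14) did not pass over all genes (limma, adjusted p = 0.265), nor did the knockout with Cdx2 minus wild type difference of -0.25 (SE 0.09; limma, adjusted p = 0.188). In the sample channel the knockout differed from wild type by -0.05 (SE 0.09), while the reference channel differed by 0.26 (SE 0.08).

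Ly6e and Ly6a, the members known from interferon responses and from blood and vessel cells, overlapped between the knockout and wild type. The log2 ratio of Ly6e was -1.20 and -0.10 in the knockout with Cdx2, 0.12, -0.38 and -0.27 in the knockout, and -0.61, -0.12, -0.49 and -0.26 in wild type. The knockout minus wild type difference was 0.19 (SE 0.26; 95% interval -0.40 to 0.78; limma, adjusted p = 0.878). For Ly6a the log2 ratio was -2.19 and -1.40 in the knockout with Cdx2, -0.56, -1.46 and -1.34 in the knockout, and -1.31, -0.93, -1.07 and -1.05 in wild type. Both arrays with Cdx2 lay below all wild type arrays for Ly6a. The knockout with Cdx2 minus wild type difference of -0.70 (SE 0.29; 95% interval -1.36 to -0.05) did not pass (limma, adjusted p = 0.244), and that of the knockout was -0.03 (SE 0.25; limma, adjusted p = 0.982). Endothelial markers (12 of 12 measured) had a summed log2 sample signal of 16.3 to 16.4 in the knockout with Cdx2, 16.4 to 16.7 in the knockout and 15.9 to 16.8 in wild type, and immune markers (11 of 12) one of 15.8 to 17.2, 16.8 to 18.3 and 16.2 to 17.8 in the same order of genotypes. Of 10 neutrophil and myeloid precursor markers, 2 were higher in the knockout than in wild type (limma, adjusted p under 0.05, log ratio). In the knockout with Cdx2, 3 were higher than in wild type. Over all genes, 0.327% and 1.41% were called in these comparisons in either direction. In the sample channel 1 and 0 were higher, beside 1.77% and 2.44% of all genes called. At an unadjusted p under 0.05 there were 8 and 5 in the log ratio, beside 7.79% and 18.1% of all genes. The sample channel had 7 and 3, beside 16% and 20.8%. The part of these cells in the Ly6a and Ly6e values was not tested.

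Plaur was measured by 2 probes, and neither separated the genotypes. The brighter one, used in the fit, had a log2 ratio of -1.29 and -0.89 in the knockout with Cdx2, -0.53, -1.08 and -0.92 in the knockout, and -0.84, -0.81, -1.04 and -1.09 in wild type. The second had -1.14 and -0.88 in the knockout with Cdx2, -0.76, -1.03 and -1.01 in the knockout, and -0.95, -0.86, -0.97 and -1.33 in wild type. The knockout minus wild type difference of the brighter probe was 0.10 (SE 0.15; 95% interval -0.25 to 0.46; limma, adjusted p = 0.891), and that of the knockout with Cdx2 from wild type was -0.14 (SE 0.18; 95% interval -0.54 to 0.26; limma, adjusted p = 0.727). A p above the threshold does not show that the levels are equal.

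**Figure D3:**
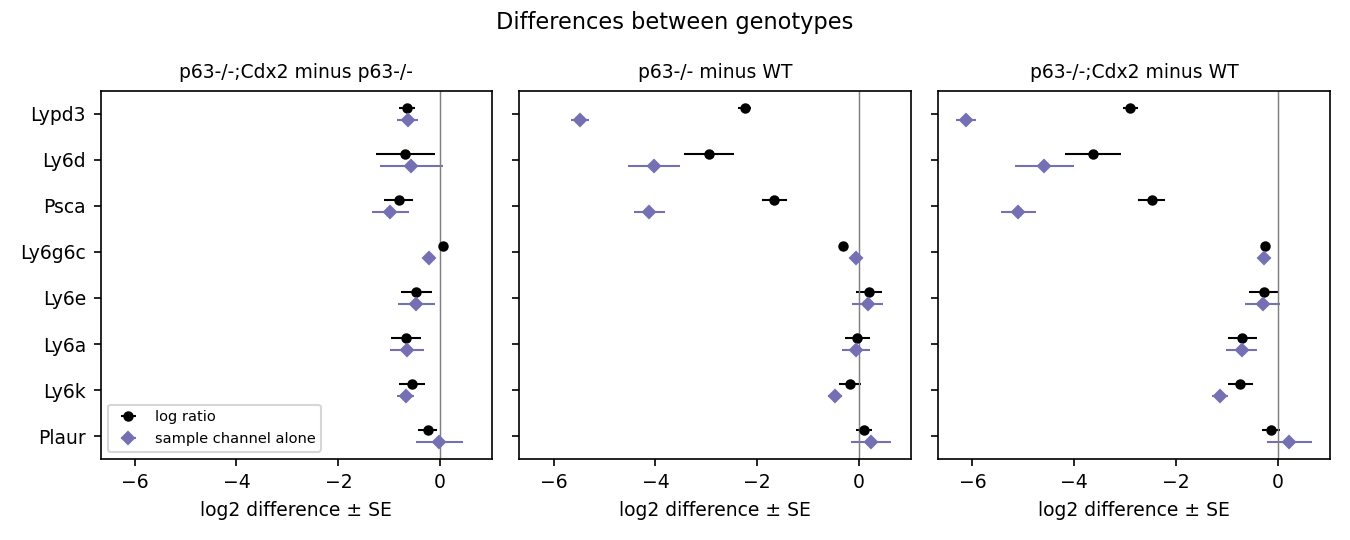
Log2 differences between genotypes (horizontal axis) with their standard errors for the 8 members, in the log ratio (circles) and in the sample channel alone (diamonds). Against wild type, Lypd3, Ly6d and Psca lie at -1.66 or lower in the log ratio and at -4.03 or lower in the sample channel, and the other members lie between -1.14 and 0.24.

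The comparison of the knockout with Cdx2 and the knockout sets mice with and without the transgene side by side where p63 is missing. These groups were on separate slides, so transgene and slide cannot be told apart. The comparison itself was not used to choose any member. Its arrays were part of the comparisons with wild type on which Lypd3, Ly6d and Psca were chosen. The differences were -0.82 (SE 0.29) for Psca, -0.69 (SE 0.58) for Ly6d, -0.67 (SE 0.30) for Ly6a and -0.65 (SE 0.16) for Lypd3. They were -0.56 (SE 0.26) for Ly6k, -0.47 (SE 0.31) for Ly6e and -0.24 (SE 0.18) for Plaur, beside a median of -0.030 over all genes. Ly6g6c differed by 0.06 (SE 0.09). None of the 8 members passed in limma, with adjusted p between 0.362 and 0.825, beside 0% of all genes. At an unadjusted p under 0.05 there were 2 of 8 members, beside 11.4% of all genes (2586). In the sample channel alone 0 of 8 members passed after adjustment, beside 0.234% of all genes, and 3 of 8 had an unadjusted p under 0.05, beside 17.7%. The 95% interval of the difference was -1.02 to -0.28 for Lypd3 and -1.48 to -0.16 for Psca, whose probe was not well above background on Cdx2 replicate 1.

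The arrays of the knockout with Cdx2 and of the knockout did not overlap for 3 of 8 members, Lypd3, Psca and Ly6k, beside 32% of all genes. With so few arrays, single arrays weigh on these differences. Cdx2 replicate 1 was the lower of its pair for 7 of 8 members, beside 48.2% of all genes, and knockout replicate 1 was the highest of its group for 8 of 8, beside 41.9%. Without Cdx2 replicate 1 the difference was 0.45 for Ly6d, 0.082 for Ly6e, -0.046 for Plaur, -0.28 for Ly6a, -0.45 for Lypd3 and -0.46 for Psca. Without Cdx2 replicate 2 it was -1.82 for Ly6d, -1.02 for Ly6e, -0.44 for Plaur, -1.07 for Ly6a, -0.85 for Lypd3 and -1.17 for Psca. Without knockout replicate 1 it was -0.36 for Ly6d, -0.40 for Ly6a and -0.090 for Plaur. None of the 8 members passed in any of these fits, in which a lone array with Cdx2 is assumed to vary like the other groups.

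On chromosome 15, 15 family genes were measured, 5 members and 10 others. Between Psca and Ly6d lie Slurp1, a secreted Ly6 protein of keratinocytes, Lypd2, and Lynx1, a modulator of nicotinic receptors. The knockout minus wild type differences of the 10 others ran from -0.22 for Ly6i to 0.65 for Slurp1, and those of the knockout with Cdx2 from -1.02 for Ly6c2 to 0.49 for Slurp1. None of these passed, which does not show that the levels are equal. For Slurp1, Lypd2 and Lynx1 the knockout differed from wild type by 0.65, 0.070 and -0.15, against -1.66 for Psca and -2.95 for Ly6d. The knockout with Cdx2 differed by 0.49, -0.0061 and -0.65, against -2.48 for Psca and -3.64 for Ly6d. Slurp1 differed by 0.65 (SE 0.20; limma, adjusted p = 0.421) in the knockout and Lynx1 by -0.65 (SE 0.22; limma, adjusted p = 0.170) in the knockout with Cdx2.

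**Figure D4:**
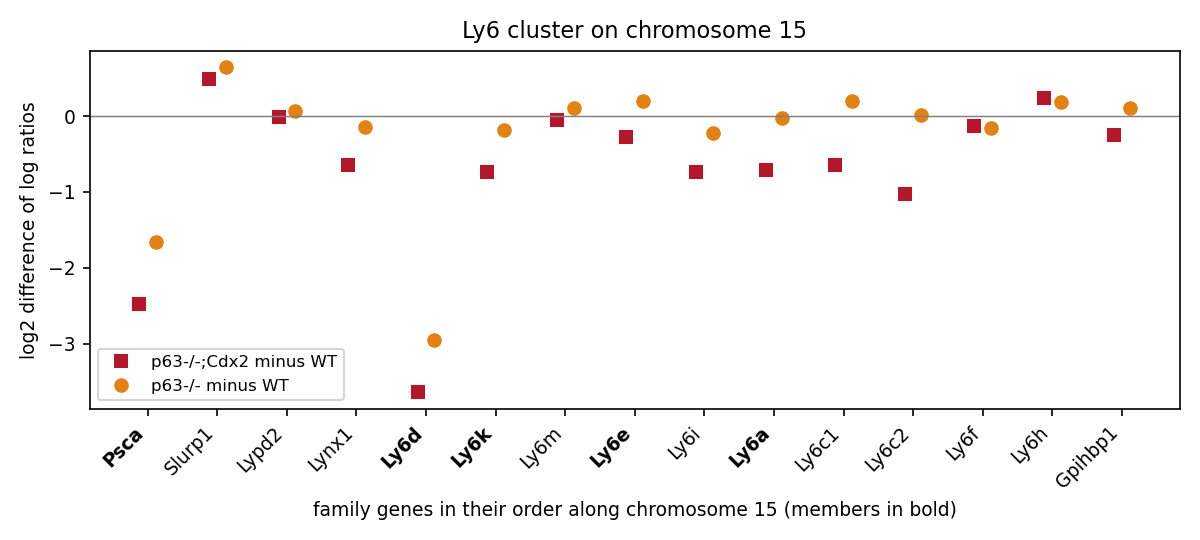
Log2 difference of the log ratio against wild type (vertical axis) for the 15 measured Ly6 family genes on chromosome 15, in their order along it and not to scale, with members in bold; squares are the knockout with Cdx2 and circles the knockout. Psca and Ly6d lie at -1.66 or lower, and the 3 genes between them lie from -0.65 to 0.65.

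Of 36 other Ly6 and uPAR family genes, 23 were measured. None passed in limma in the log ratio in any of the 3 comparisons. At an unadjusted p under 0.05 there were 3 for p63-/-;Cdx2 against the knockout, 1 between knockout and wild type and 4 for p63-/-;Cdx2 against wild type, of 23 each, beside 11.4%, 7.79% and 18.1% of all genes. Their median difference was 0.0040 for the knockout against wild type, beside 0.022 over all genes, and -0.051 for p63-/-;Cdx2 against wild type, beside -0.0042 over all genes. The lowest p for p63-/-;Cdx2 against the knockout was that of Ly6c1, a marker of endothelium and monocytes, at -0.85 (SE 0.33; limma, adjusted p = 0.411). In the sample channel Ly6g6e was lower in the knockout than in wild type, at -1.47 (SE 0.16; limma, adjusted p = 0.00295). It was also lower there in the knockout with Cdx2, at -1.68 (SE 0.18; limma, adjusted p = 0.00396). Spaca4, a sperm membrane protein, was higher in that channel in the knockout, at 0.55 (SE 0.07; limma, adjusted p = 0.00657). The log ratio, which subtracts the reference signal, differed much less. It gave -0.25 and -0.41 for Ly6g6e in the same order (limma, adjusted p = 0.770 and 0.307). For Spaca4 it gave 0.017 in the knockout (limma, adjusted p = 0.960).

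The plasminogen activator system, in which Plaur is the urokinase receptor, was represented by 24 of 24 listed genes. None passed in limma in any of the 3 comparisons, while 2, 5 and 9 had an unadjusted p under 0.05 for p63-/-;Cdx2 against the knockout, the knockout against wild type and p63-/-;Cdx2 against wild type, beside 11.4%, 7.79% and 18.1% of all genes. The lowest p was that of Itga5, the fibronectin receptor subunit, in p63-/-;Cdx2 against wild type, at -0.40 (SE 0.08; limma, adjusted p = 0.0616). Serpinb2, an inhibitor of urokinase, differed by -0.44 (SE 0.13; limma, adjusted p = 0.400) in the knockout against wild type, and Cd44, the hyaluronan receptor, by -0.41 (SE 0.12; limma, adjusted p = 0.362) in p63-/-;Cdx2 against the knockout.

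The interferon response genes, to which Ly6e and Ly6a are related by induction, were measured for 32 of 32, and none passed in limma in the log ratio. In the same order of comparisons, 1, 7 and 4 had an unadjusted p under 0.05, beside 11.4%, 7.79% and 18.1% of all genes. Their median difference was -0.18 for p63-/-;Cdx2 against the knockout, 0.26 between knockout and wild type and 0.030 for p63-/-;Cdx2 against wild type, beside -0.030, 0.022 and -0.0042 over all genes. Rtp4, an interferon-induced chaperone of receptors, differed by 0.77 (SE 0.17; limma, adjusted p = 0.185) in the knockout against wild type. In the sample channel Rtp4 was higher in the knockout than in wild type, at 0.93 (SE 0.16; limma, adjusted p = 0.0315). In p63-/-;Cdx2 against wild type Rtp4 differed by 0.70 (SE 0.19; limma, adjusted p = 0.111), and Oas2, an antiviral synthetase, by -0.70 (SE 0.29; limma, adjusted p = 0.418) in p63-/-;Cdx2 against the knockout.

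Of the genes that attach GPI anchors or share membrane rafts with these proteins, 25 of 27 were measured and none passed in limma, with 1, 2 and 2 at an unadjusted p under 0.05 in that order, beside 11.4%, 7.79% and 18.1% of all genes. Pigf, an enzyme of anchor assembly, differed by -0.47 (SE 0.12; limma, adjusted p = 0.304) in the knockout against wild type, and Flot1, a raft scaffold protein, by -0.51 (SE 0.15; limma, adjusted p = 0.130) in p63-/-;Cdx2 against wild type and by -0.56 (SE 0.16; limma, adjusted p = 0.362) in p63-/-;Cdx2 against the knockout. Of 16 listed binding partners of Lypd3 and Ly6 proteins, 14 were measured. In the log ratio 0, 0 and 1 of them passed in limma in that order, beside 0%, 0.327% and 1.41% of all genes. At an unadjusted p under 0.05 there were 1, 2 and 1, beside 11.4%, 7.79% and 18.1% of all genes. Itgb4, the hemidesmosome integrin subunit, fell in p63-/-;Cdx2 against wild type, at -1.35 (SE 0.18; limma, adjusted p = 0.0164). It differed by -0.92 (SE 0.16; limma, adjusted p = 0.0722) in the knockout against wild type, which passed in the sample channel, at -1.67 (SE 0.20; limma, adjusted p = 0.00591), and by -0.43 (SE 0.19; limma, adjusted p = 0.437) in p63-/-;Cdx2 against the knockout. Itgb4 is also on the list of basal squamous markers, whose summed signal is given above.

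The genes most like each of the 3 lower members were found by the root mean square difference of log2 ratios over the 9 arrays, each gene centred on its own mean. For Lypd3 they were Krt14 at 0.205, Trim29 at 0.261, Duoxa1 at 0.303 and Aqp3 at 0.311. For Psca they were Col7a1 at 0.194, 2300002M23Rik at 0.246, Duoxa1 at 0.271 and Asprv1 at 0.292. For Ly6d they were Cysrt1 at 0.444, Serpinb5 at 0.560, Lypd3 at 0.621 and Aqp3 at 0.623. Among the members, Lypd3 and Psca were the closest of the pairs that include either, at 0.348, while Ly6d lay 0.621 from Lypd3 and 0.731 from Psca. All of these rest on the same 9 arrays and the same split of slides.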

How the data were processed

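Total RNA of newborn mouse esophagus was hybridised on 9 Agilent 2-colour arrays. Per the file headers, Feature Extraction 10.7.3.1 wrote the mean intensity and the local background intensity of each spot in each channel, without subtraction. Per the file headers, it also wrote processed intensities and their log10 ratio (Cy5 to Cy3). The submitters' processing notes name version 9.1. The authors' deposited value table holds log2 ratios that correlated at 0.992 or more with each array's own ratio. How its centring was done is not given in the sources used here.

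Background was corrected by normexp with offset 50, ratios were normalized by loess within arrays with control spots at weight 0, flagged spots were left out, and spots were averaged per probe. Kept were probes (33692) with values on all 9 arrays whose sample signal was well above background on 2 arrays or more, and each of 22619 genes was read from its brightest probe. The sample channel was taken after loess and Aquantile. Tests used limma 3.58.1 under R 4.3.3 (lmFit and eBayes over all 9 arrays), with Benjamini-Hochberg adjustment at 0.05 in each comparison. The fit was tested on simulated data. Probe coordinates are mm9.

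The members, the gene lists and the tests were chosen with earlier results of these data known. Named genes are the members, Trp63, from each list up to 4 genes past the threshold per direction, or else the lowest p, and the 4 genes most like Lypd3, Ly6d and Psca; genes called in the sample channel alone were added after their values were seen. Protein sequences were not used here. Groups have 2 to 4 arrays, which limits the precision. P-values set a difference between groups against the spread between samples within groups. Each genotype had its own slide, so that spread holds no variation between slides.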

Additional observations from a re-analysis of the deposited data

Results flagged for a closer look

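One array stood apart from the others of its group for the brighter Plaur probe. In the sample channel, wild type replicate 3 was at 9.80 (log2), with the other wild type arrays at up to 11.5. Its unadjusted intensity was 820 units in the sample channel, against 2881 to 3042 units on the other wild type arrays, and 1481 units in the reference channel, against 3733 to 4099 units. The log2 ratio of that array, -1.04, lay inside the wild type range, and the second Plaur probe was not apart. Only the wild type group is large enough for such a check, and chance marks about 1 group in 20.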

How the results depend on the processing

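The results were recomputed under 11 other settings and with each of the 9 arrays left out. The cause of each change was not tested. For p63-/-;Cdx2 against the knockout 0 genes were called, and 5 with the scanner software's processed signals, 53 in the sample channel, 1 with a trended and robust prior and 4 from the authors' value table, with 0 to 36 on leaving out an array and no member called in any. The knockout against wild type gave 74 genes, and 183 without background subtraction, 133 with processed signals, 401 in the sample channel, 133 from the authors' table, 115 with only these groups in the fit and 22 to 121 on leaving out an array. The 2 members called there were 1 with processed signals, from the authors' table and among probes above background on all 9 arrays (where Psca has no value), 0 with scale normalization between arrays, and 1 to 3 on leaving out an array. For p63-/-;Cdx2 against wild type 318 genes were called, and 803 without background subtraction, 93 with scale normalization, 552 in the sample channel, 544 with a trended and robust prior, 50 with only these groups and 58 to 371 on leaving out an array. The 3 members called there were 0 with scale normalization and 2 to 4 on leaving out an array. Lypd3, Ly6d and Psca stayed lower than wild type in both genotypes under every setting that gave a value.

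Deviations from the group mean in same-numbered knockout and wild type arrays correlated at -0.06, 0.05 and 0.18. In differently numbered arrays of these groups the correlations were -0.20 to 0.19. So few arrays cannot show whether replicate numbers pair the samples, and the main fit left them unpaired. With the replicate block 9 genes and 1 member were called between knockout and wild type, and 8 genes and 1 member for p63-/-;Cdx2 against wild type.

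Directions turned for members that had not passed. For p63-/-;Cdx2 against the knockout, Ly6g6c was -0.22 in the sample channel and -0.032 to 0.16 on leaving out an array, Ly6d -1.82 to 0.45 and Ly6e -1.02 to 0.082. For the knockout against wild type, Ly6a was 0.0042 with processed signals and from the authors' table, 0.24 with scale normalization and -0.31 to 0.14 on leaving out an array, and Plaur -0.051 to 0.22. For p63-/-;Cdx2 against wild type, Plaur was 0.028 with processed signals and from the authors' table, 0.10 with scale normalization, 0.22 in the sample channel and -0.34 to 0.058 on leaving out an array, and Ly6e was -0.83 to 0.27. Ly6k passed there without background subtraction, at -0.94 (limma, adjusted p = 0.0238). A planned comparison of level order between members was not run, since signals of different probes cannot be compared.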
